A study of Drosophila melanogaster with 2 samples.

Results

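Nuclear genes for the mitochondrial respiratory chain and ATP synthase were examined for binding of Ssrp, a subunit of the histone chaperone FACT, in fly embryos. The genes were chosen by symbol alone: protein-coding genes outside the mitochondrial chromosome whose symbol starts with ND-, Sdh, UQCR-, COX or ATPsyn. This gave 88 of 13968 protein-coding genes. By prefix, 40 belonged to complex I, 8 to complex II, 9 to complex III, 16 to complex IV and 15 to complex V. Most encode subunits, whereas Sdhaf3, by its name, is an assembly factor of complex II. Another 20 carry the symbol of a second member followed by L, for example SdhAL beside SdhA, and are called L paralogs below.

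The respiratory chain passes electrons from NADH and succinate to oxygen through complexes I to IV of the inner mitochondrial membrane, and complex V, the ATP synthase, uses the proton gradient so built to make ATP. Complex I oxidises NADH, complex II is succinate dehydrogenase, complex III reduces cytochrome c and complex IV is cytochrome c oxidase. Some subunits of complexes I, III, IV and V are encoded in mitochondrial DNA, so nuclear and mitochondrial genes must both be expressed for a working chain. FACT loosens and rebuilds nucleosomes where polymerases pass, and its occupancy is commonly high at transcribed genes.

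A single group of 2 biological replicates was measured by ChIP-seq, with no second condition. Flies of 1 transgenic line carried Ssrp with GFP at its C-terminus, and chromatin of whole embryos, sexes mixed, aged 0 to 16 h, was sonicated and precipitated with an antibody against GFP. Chromatin from all cells of many embryos was mixed, so the cell type in which a gene is bound cannot be read, and control libraries without the tagged protein were not analysed here. The labels do not say which promoter drives the fusion.

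The authors deposited peaks of each replicate, of the pooled replicates and of the IDR list, named for a threshold on reproducible rank between replicates. Each replicate list and the pooled list held 30000 peaks, and the IDR list was shorter. A peak's signal is the authors' own value and ran from 157 to 5979 in the IDR list, with a median of 292. A peak in the IDR list carries the signal and rank it has in the pooled list, so the list reads as a cut on pooled signal. Presence in it does not show that the peak was found in each replicate. The scale differs between the replicate and pooled lists, so signals are set beside each other only within a list, and replicates by rank, where rank 1 is the strongest peak. A replicate's rank for a gene is that of its strongest promoter summit. Read numbers are not given, so the sequencing depth is unknown. A gene was counted as having a promoter peak when a summit, the highest point of a peak, lay within 500 bp of any of its transcription start sites (TSSs).

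The IDR list placed a promoter peak at 21 of the 88 genes, 23.9% (Wilson 95% interval 16.2 to 33.7, which covers counting error only), against 19.3% of all protein-coding genes. The interval holds the genome-wide share, so the genes as a whole did not stand apart from it at this number. Counting summits anywhere in the gene as well added ND-39, for 22 genes, or 25%, against 24.9% of all genes. Under that wider rule the pooled list reached 63 of the 88 genes (71.6%, 61.4 to 80.0) against 54.6%. Replicate 1 reached 62 (70.5%, 60.2 to 79) against 55.4% and replicate 2 reached 58 (65.9%, 55.5 to 75) against 55.7%. In the pooled list 55 genes (62.5%, 52.1 to 71.9) had a summit at the promoter itself, against 43.4% of all genes. The pooled and replicate 1 intervals thus lay above the shares of all genes. Those of replicate 2 and of the IDR list (17.1 to 35 by the wider rule) held them.

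For the same rule, 25 of 73 mitochondrial ribosomal protein genes (34.2%) had an IDR promoter peak, as did 51 of 92 cytosolic ribosomal protein genes (55.4%) and 6 of 48 proteasome subunit genes (12.5%). The respiratory genes lay between the mitochondrial ribosome and the proteasome. Their interval of 16.2 to 33.7 overlapped that of the mitochondrial ribosomal proteins (24.4 to 45.7) and that of the proteasome (5.86 to 24.7). It did not overlap that of the cytosolic ribosomal proteins (45.3 to 65.2).

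**Figure D1:**
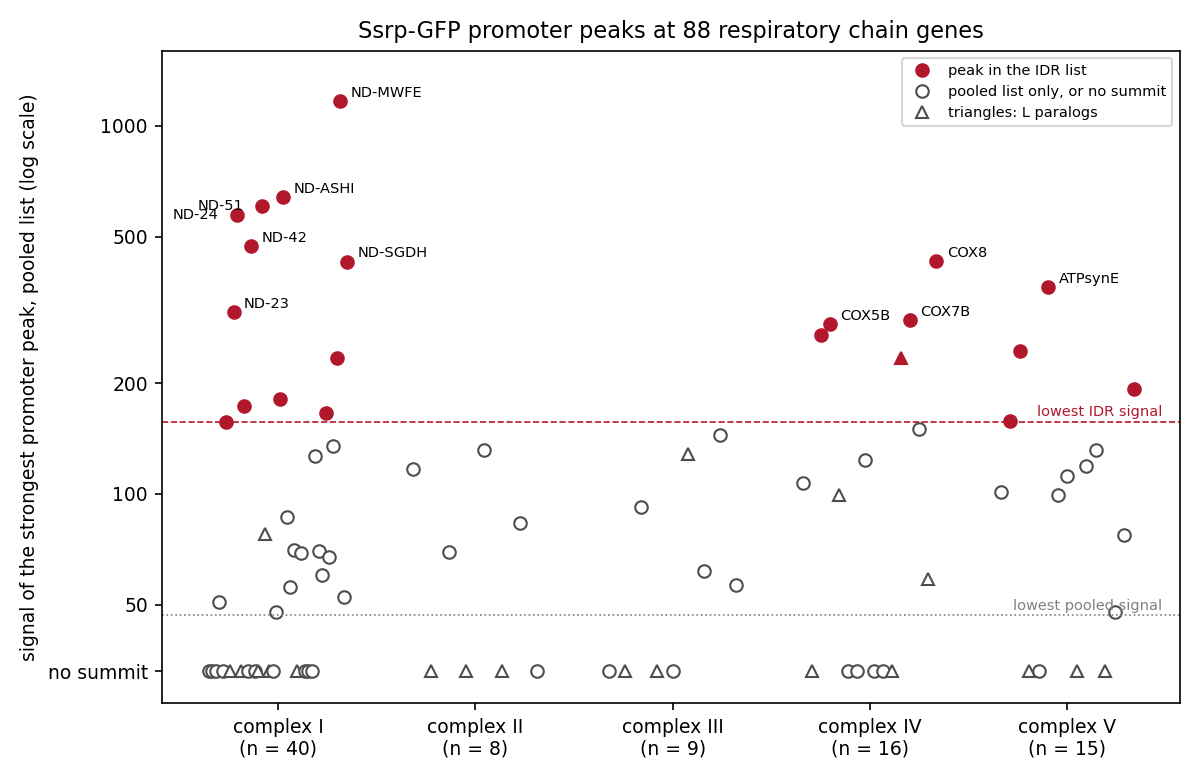
Signal of the strongest promoter peak of each gene in the pooled list (log axis), by complex, with genes lacking a pooled promoter summit on the lowest line. Filled symbols mark genes with a peak in the IDR list, triangles mark L paralogs, and the dashed line is the lowest IDR signal, 157; complexes II and III have no filled symbol, and the highest point is ND-MWFE at 1165.

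The complexes differed in how many genes had an IDR promoter peak. Complex I had 12 of 40 (30%, 18.1 to 45.4), complex IV had 5 of 16 (31.2%, 14.2 to 55.6) and complex V had 4 of 15 (26.7%, 10.9 to 52.0). Complexes II and III had 0 of 8 and 0 of 9, which allows shares of up to 32.4% and 29.9% by the same interval. All 5 intervals overlap and hold the genome-wide 19.3%. The bound genes of complex I had a median signal of 370, or 1.27 times the list's median, those of complex IV 290 (0.996 times) and those of complex V 219 (0.75 times). Across all 21 genes the median signal was 290, from 157 to 1165, against 355 over all protein-coding genes with a promoter peak.

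Complex I has a core of subunits that are conserved from bacteria and carry the flavin and iron-sulphur clusters, of which 7 are encoded in the nucleus. Of these, 5 had an IDR promoter peak (71.4%, 35.9 to 91.8): ND-51, ND-24, ND-23, ND-30 and ND-20. Among the other complex I members that are not L paralogs, 7 of 27 did (25.9%, 13.2 to 44.7), against 19.3% of all protein-coding genes. The core was set apart after the values had been seen, so these shares are a description, and their intervals overlap. In the pooled list the promoter shares were alike, 5 of 7 core genes (71.4%) and 19 of 27 others (70.4%), against 43.4% of all genes. The IDR summits at ND-51, ND-23 and ND-30 lay nearer to the TSSs of CG13994, spn-E and CG15812 than to their own. Signals did not follow the same order, with a median of 312 at the bound core genes and 428 at the other bound complex I genes.

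ND-51 and ND-24 form the NADH-oxidising end of complex I, where ND-51 holds the flavin. The ND-51 peak had an IDR signal of 605 (rank 984), and ranks of 1127 in replicate 1 and 903 in replicate 2. The ND-24 peak (chromosome X, 17632031 to 17632306) had a signal of 574 (rank 1064), and ranks of 1268 and 954. Both genes therefore ranked high in each replicate and close to each other in each list. ND-23, a subunit with iron-sulphur clusters that pass electrons towards ubiquinone, had a peak (chromosome 3R, 15837072 to 15837467) with a signal of 312 (rank 2497) and ranks of 1911 and 3374. ND-30 had a peak (chromosome 3L, 3159683 to 3160078) with a signal of 173 (rank 4910), and rank 5321 in replicate 2. In replicate 1 the strongest promoter summit, at -162 bp, had rank 4848, but the one nearest to the IDR summit, at -303 bp, was weaker (rank 11464, 58 bp away). ND-20, which carries the last cluster before ubiquinone, had a peak (chromosome X, 15986799 to 15987194) with a signal of 157 (rank 5428) and ranks of 4922 and 6442. ND-30 and ND-20 were thus among the weakest peaks of the IDR list. Of the remaining core genes, ND-49 had no summit in any list, and ND-75, which also carries clusters, had none at its promoter in the IDR or pooled list.

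The accessory subunits of complex I surround the core and are needed for its assembly and stability. ND-MWFE, a small accessory subunit of the membrane arm, had the peak (chromosome 2R, 13158339 to 13158675) with the highest signal of all 21 genes, 1165 (rank 294), and ranks of 391 and 236 in the replicates. Its summit lay closer to the TSS of a neighbour, at 43 bp from TppII, a peptidase gene, than to its own, at -178 bp (negative positions are upstream). ND-ASHI followed with a signal of 641 (rank 898) and ranks of 729 and 1084. Its peak was shared with Fum1, the gene of the citric acid cycle enzyme fumarase, whose TSS lies on the other side. ND-42 had a signal of 471 (rank 1433) and ranks of 1422 and 1316, and its window also held Cchl, named for the lyase that attaches haem to cytochrome c.

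The remaining accessory subunit genes had lower signals. ND-SGDH had a signal of 428 (rank 1609) with ranks of 2116 and 1364. ND-MNLL had a signal of 234 (rank 3543) with ranks of 3677 and 3574. ND-B22, at a signal of 166 (rank 5125), stood at ranks of 4164 and 6686. ND-AGGG had a signal of 181 (rank 4697) and rank 4425 in replicate 2, but replicate 1 listed no summit there, its nearest being 437032 bp away. That gene therefore rests on 1 replicate.

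The nuclear subunits of complex IV enclose a catalytic centre made of mitochondrially encoded proteins. COX8 had the highest signal of the complex, 430 (rank 1593), and rank 1591 in replicate 1. In replicate 2 no summit lay within 500 bp of its TSS, and the nearest one was 1817 bp away. COX7B had a signal of 296 (rank 2687), with ranks of 2347 and 2982, and COX5B a signal of 290 (rank 2738), with ranks of 2539 and 3105. Both of these replicated closely. COX5A had a peak (chromosome 3R, 11819329 to 11819724) with a signal of 270 (rank 2975) but ranks of 7666 and 2216, so that in replicate 1 its strongest promoter peak ranked below those of the others listed there. The fifth gene, the L paralog COX7AL2, had a signal of 234 (rank 3539) and close ranks of 3516 and 3547, although its summit lay 449 bp downstream of the nearest of its TSSs.

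The bases under the summits are shown for 4 genes of complex I and 3 of complex IV, on the strand of the gene, from the reference genome (assembly release 6, dm6). They were chosen to span strong and middle signals and high and low GC content. Each sequence reaches 60 bases to either side of the summit, less where a transcribed untranslated region begins. Capitals mark the TATA box letters TATAAA on either strand, which read TTTATA when they lie on the opposite one, and the ends of a pair may overlap.
ND-51, chr2L:6062814-6062934, minus strand: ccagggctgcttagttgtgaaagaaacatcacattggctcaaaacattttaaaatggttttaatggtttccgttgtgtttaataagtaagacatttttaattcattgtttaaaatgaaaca
ND-ASHI, chrX:6679303-6679423, minus strand: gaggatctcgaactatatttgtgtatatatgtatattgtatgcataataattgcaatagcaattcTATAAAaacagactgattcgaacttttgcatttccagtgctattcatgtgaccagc
ND-42, chr3R:22027508-22027628, plus strand: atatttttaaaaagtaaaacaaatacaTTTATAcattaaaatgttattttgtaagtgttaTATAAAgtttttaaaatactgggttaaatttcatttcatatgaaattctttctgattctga
ND-SGDH, chr3L:12138609-12138729, minus strand: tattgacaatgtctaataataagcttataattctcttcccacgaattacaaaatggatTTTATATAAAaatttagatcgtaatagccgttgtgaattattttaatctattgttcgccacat
COX8, chr3L:21539515-21539635, minus strand: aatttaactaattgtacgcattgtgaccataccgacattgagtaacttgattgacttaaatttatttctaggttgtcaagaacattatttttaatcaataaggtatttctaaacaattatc
COX7B, chr3L:17425289-17425409, plus strand: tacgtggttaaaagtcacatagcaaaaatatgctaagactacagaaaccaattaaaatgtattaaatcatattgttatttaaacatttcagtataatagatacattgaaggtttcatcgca
COX5B, chr2L:6557503-6557620, plus strand: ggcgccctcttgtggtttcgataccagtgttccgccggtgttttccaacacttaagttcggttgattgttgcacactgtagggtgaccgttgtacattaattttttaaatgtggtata
The shared feature to see is the low GC content: 17.4% of the ND-42 bases printed and 26.4% of those of ND-SGDH, COX8 and COX7B are G or C, whereas COX5B is at 44.1%. Counting 50 bp to either side of the summit, the 21 genes had a median GC content of 25.7%, from 16.8 to 46.5, against 27.7% for all protein-coding promoter peaks, so low GC content was not particular to these genes. TATAAA lay within 50 bp of the summit at 10 of 21 peaks (47.6%) and at 29.9% of 1867 promoter peaks of all genes. Such a match is a description of AT-rich sequence and not of a working promoter element.

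The ATP synthase has a membrane-embedded rotor driven by protons and a soluble head that makes ATP. ATPsynE, subunit e of the membrane part, had the peak (chromosome 3R, 14326919 to 14327032) with the highest signal of the complex, 364 (rank 2008), with ranks of 2123 and 2059 and a summit at 5 bp from its TSS. ATPsynCF6, coupling factor 6 of the peripheral stalk, had a peak (chromosome 3R, 23356101 to 23356496) with a signal of 244 (rank 3378) and ranks of 3758 and 3241. Its summit was only 21 bp from the TSS of Sec13, a gene for a vesicle coat and nuclear pore protein. ATPsyngamma, the central stalk that turns inside the head, had a peak (chromosome 3R, 29748809 to 29749204) with a signal of 193 (rank 4387) and ranks of 4718 and 4520. ATPsynC, the subunit of the rotor ring, had the lowest signal, 158 (rank 5383). Both replicates had a summit near that peak, 90 bp away at rank 5156 in replicate 1 and 41 bp away at rank 8751 in replicate 2. Their strongest summits at the ATPsynC promoters were others, 665 bp apart, with ranks of 3589 and 5565. With the weaker peaks of the pooled list, 12 of the 15 complex V genes had a summit by the wider rule (80%, 54.8 to 93). The share of all genes was 54.6%, just below that interval. At the promoter 11 had a pooled summit (73.3%, 48 to 89.1), against 43.4% of all genes. No L paralog was among them, so that all 12 other genes had a pooled summit by the wider rule (100%, 75.8 to 100).

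No gene of complexes II and III entered the IDR list. Their shares with a weaker, pooled peak lay above that of all genes, with wide intervals that hold it. Complex II, which links the citric acid cycle to the chain, had pooled promoter summits at 4 of 8 genes (50%, 21.5 to 78.5, against 43.4% of all genes). The membrane anchor SdhC led at a pooled signal of 132 (pooled rank 6611, ranks of 7846 and 6579 in the replicates). Complex III had them at 5 of 9 (55.6%, 26.7 to 81.1), led by UQCR-C2, one of its core proteins, at 145 (rank 5983, 5196 and 6211). Both signals lie below 157, the lowest of the IDR list. Without L paralogs the counts were 4 of 5 (80%, 37.6 to 96.4) in complex II and 4 of 6 (66.7%, 30 to 90.3) in complex III. The leading genes outside the IDR list in the other complexes were COX7C at 150 (rank 5757; 5555 and 5311), ND-MLRQ at 135 (rank 6462; 7241 and 7184) and ATPsynbeta, which carries the catalytic sites, at 132 (rank 6624; 8043 and 6156). Just inside the list were ND-20 at 157, ATPsynC at 158 and ND-B22 at 166. Signals on the pooled scale therefore ran from one side of the threshold to the other without a gap.

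Of 20 L paralogs, 1 had an IDR promoter peak (5%, 0.888 to 23.6), COX7AL2, against 20 of the other 68 members (29.4%, 19.9 to 41.1). The paralogs' interval holds the 19.3% of all protein-coding genes, and that of the other members begins just above it. In the pooled list the promoter counts were 5 of 20 (25%, 11.2 to 46.9) and 50 of 68 (73.5%, 62 to 82.6). Of all genes 43.4% had a pooled promoter summit, a share that the paralogs' interval holds and that of the other members does not. As background, many duplicated nuclear genes for mitochondrial proteins of flies are known for expression in the testis. The 20 paralogs were named for 18 genes, of which 5 had an IDR promoter peak: ND-20, ND-24, ND-51, COX5B and ATPsynCF6. In 0 pairs did both genes have one. Only the pair of COX7AL2 and COX7A could have, since no other paralog had an IDR promoter peak, so this count says little about the pairs. ND-51 had a signal of 605, whereas ND-51L1 had a pooled signal of 77.6 and ND-51L2 no promoter summit. Paralogs were shorter, with a median gene length of 784 bp against 1115 bp for the other members, and 15% against 55.9% had a divergent neighbour within 1000 bp. The part of length and neighbours in the difference was not tested. COX6AL, COX6AL2, COX6CL and ATPsynepsilonL, which are paralogs of genes with other symbols (levy, cype and sun), were added after the values had been seen. With them the counts were 1 of 24 (4.17%) and 20 of 64 (31.2%).

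**Figure D2:**
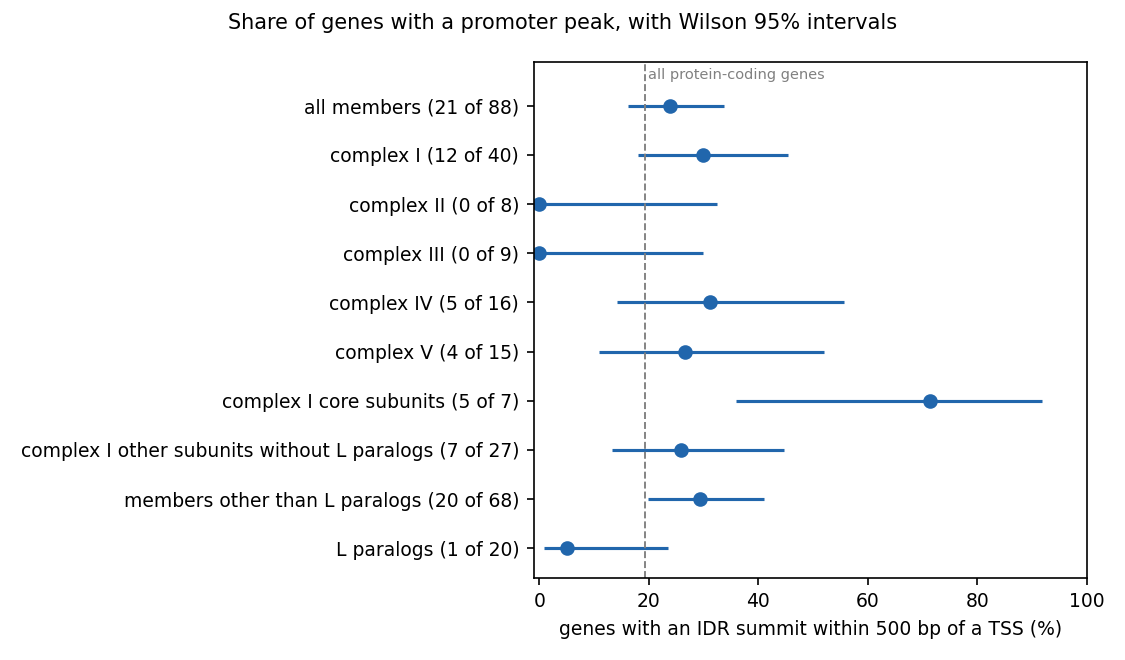
Share of genes with an IDR promoter peak (horizontal axis, percent) for all 88 genes, each complex, complex I core and other subunits, and L paralogs; points are shares, lines are Wilson 95% intervals and the dashed line is the 19.3% of all protein-coding genes. The complex I core point, 71.4%, lies farthest right, and the L paralogs, at 5%, lie left of the line with an interval that holds it.

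In all, 18 of the 88 genes had no summit by the wider rule in any of the 4 lists, and 12 of these were L paralogs. The share of all protein-coding genes without one in any list is not given. In the pooled list alone, 71.6% of members had a summit by this rule, against 54.6% of all genes, so lacking one was not particular to the members. The L paralogs were ND-20L, ND-24L, ND-49L, ND-B14.5AL, SdhAL, SdhCL, UQCR-11L, UQCR-14L, COX4L, COX7AL, ATPsynCF6L and ATPsynGL. The others were ND-19, ND-49, ND-B14.7, Sdhaf3, COX6AL and COX6CL. The remaining L paralogs were ND-51L1, ND-51L2, SdhBL, UQCR-6.4L, COX5BL, COX7AL2, COX7CL and ATPsynbetaL. Absence from a list says only that no peak was among those deposited, since weaker signal is not given.

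The replicates were compared gene by gene. Of the 21 genes, 19 had a promoter summit in both replicate lists, the exceptions being COX8 and ND-AGGG, and 15 stood among the strongest peaks of both when each replicate list was cut to the length of the IDR list. Judged by the summit nearest to the IDR summit, 14 did, since ND-30 then falls out. At 19 genes both replicates had a summit within 100 bp of the IDR summit. Over all IDR peaks, 59 (1.08%) had no summit of replicate 1 within 500 bp and 6 (0.11%) none of replicate 2. The strongest promoter summits of the replicates differed in position by a median of 23 bp, and by at most 50 bp at 13 genes. Taken alone at that length, replicate 1 marked 22 of 88 genes (25%) against 19.5% of all genes, and replicate 2 marked 18 (20.5%) against 19.1%. The mean was 22.7% ± 3.21 (SD, n = 2) for the members and 19.3% ± 0.253 for all genes. The difference of the means was about as large as the spread of the members between replicates. Without L paralogs the mean was 27.9% ± 4.16 (SD, n = 2). Of the 67 genes without an IDR promoter peak, 3 were among these strongest peaks in replicate 1, 1 in replicate 2 and 0 in both. In replicate 1 these were ATPsynO (rank 4739), UQCR-C2 (5196) and SdhA (5218), so that replicate alone would give complexes II and III 1 gene each, and in replicate 2 it was COX7C (5311).

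**Figure D3:**
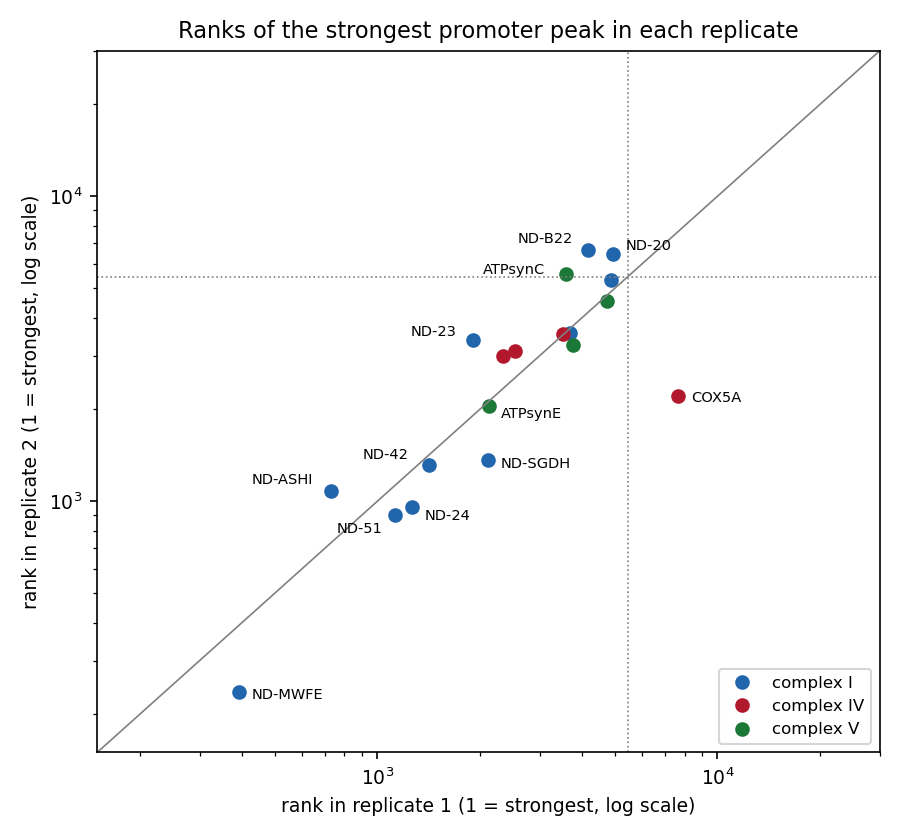
Rank of the strongest promoter peak in replicate 1 (horizontal) and replicate 2 (vertical), both log axes with rank 1 strongest, for the 19 genes with an IDR promoter peak and a summit in both replicates. The solid line marks equal ranks and dotted lines the length of the IDR list; most genes lie near the line, and COX5A, at 7666 and 2216, lies farthest from it.

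Summits sat mostly upstream of the TSS. Of the 21 genes, 17 had the summit upstream (81%, against 89.9% of all genes with a promoter peak) and 4 downstream: ND-24 at 68 bp, ATPsynE at 5 bp, ATPsynC at 129 bp and COX7AL2 at 449 bp. The median position was -128 bp (quartiles -178 and -72), against -162 bp (-241 and -101) for all genes. The quartile ranges overlap. For comparison, summits lay at a median of -181 bp at mitochondrial ribosomal protein genes and -53 bp at cytosolic ones. Of the complexes, complex I had a median of -147 bp, complex IV -128 bp and complex V -66.5 bp, on 12, 5 and 4 genes.

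**Figure D4:**
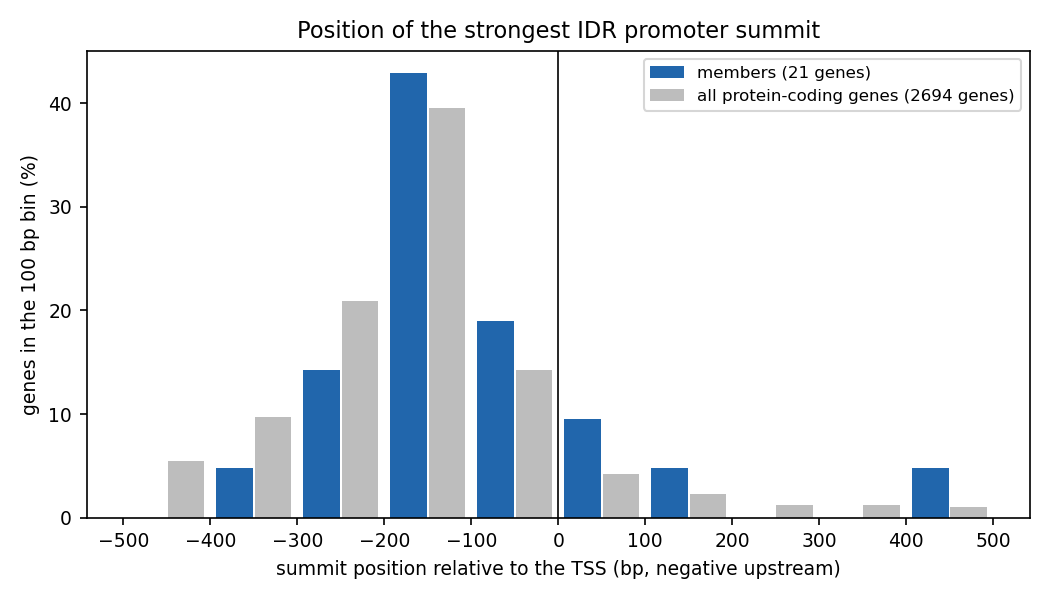
Position of the strongest IDR promoter summit relative to the TSS in bins of 100 bp (horizontal, negative upstream) and percent of genes in each bin (vertical), for the 21 genes in blue and all 2694 protein-coding genes with such a peak in grey. The bin from -200 to -100 bp is the highest for both, with 42.9% of the 21 genes and 39.5% of all genes.

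Most of these peaks were shared with a neighbouring gene. At 17 of the 21 genes the same summit lay within 500 bp of the TSS of another gene, and at 8 that TSS was the nearer one, so that 13 genes would be left if each peak were given to its nearest TSS only. The genes alone in the window were ND-AGGG, ND-B22, ND-20 and COX7AL2. Partners included the synaptonemal complex gene corolla at ND-24, the piRNA helicase gene spn-E at ND-23, RhoGAP68F at ND-SGDH, CG13994 at ND-51, CG15812 at ND-30 and both CG45089 and the vesicle tether gene p115 at ND-MNLL. At complex IV they were the proton pump subunit gene VhaM9.7-b for COX8, the exocyst gene Sec3 for COX7B, the RNA-binding protein gene glo for COX5A and IFT52 for COX5B, whose TSS was 58 bp from the summit. At complex V they were Afti for ATPsynE, yata for ATPsyngamma and the microRNA gene mir-4949 for ATPsynC. Shared peaks were common elsewhere too: the 2694 protein-coding genes with an IDR promoter peak rested on 1867 peaks. The share of all genes with a shared peak is not given, so sharing cannot be called particular to the members. A shared peak cannot be assigned to either gene from these data.

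A TSS on the opposite strand within 1000 bp upstream, a divergent neighbour, was present at 41 of 88 members (46.6%) and at 34.1% of all genes. It was present at 16 of the 21 genes with an IDR promoter peak (76.2%), against 61% of all genes with one, and at 25 of the 67 without (37.3%). Read the other way, 39% of members with such a neighbour had a promoter peak, against 34.5% of all genes with one. Without it, 5 of 47 members did (10.6%), against 11.4% of all genes. Both shares of members lay near those of all genes, as did their undivided share (23.9% against 19.3%). The part of neighbours in the members' share was not tested. Members with and without an IDR promoter peak had nearly equal median lengths, 1094 and 1100 bp, and both were shorter than the median of all genes, 2164 bp.

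**Figure D5:**
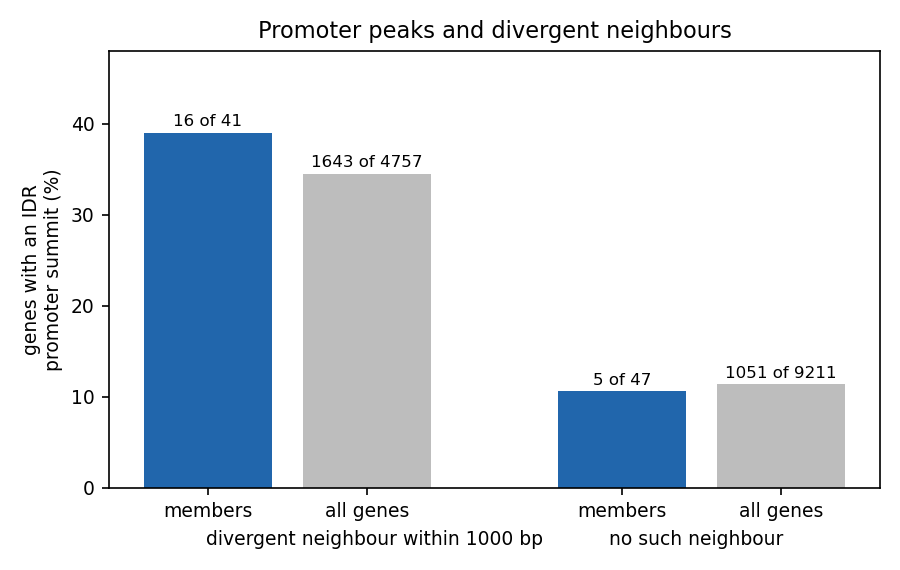
Percent of genes with an IDR promoter peak (vertical, from 0) among genes with and without a divergent neighbour TSS within 1000 bp, for the respiratory genes in blue and all protein-coding genes in grey. Both pairs of bars are close in height, 39 and 34.5% with a neighbour and 10.6 and 11.4% without.

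Sequence elements were sought within 100 bp of 1 TSS of each gene, on both strands. Motif 1, an element of many housekeeping promoters of flies, was searched by its core GGTCACACT. It was present at 12 of 88 members (13.6%) and at 5.01% of all protein-coding genes, and each of the 12 was a member other than an L paralog. It was found at 3 of the 21 genes with an IDR promoter peak (14.3%) and at 9 of the 67 without (13.4%), so it was as common at unbound members. The sites below, 29 bases each, have the core in capitals and lie on the strand of the gene (dm6). They are shown because, of the elements searched, motif 1 alone was more common at members than at all genes in this window.
COX7B, chr3L:17425476-17425504, plus strand: acaacacaacGGTCACACTgttcaacaca
COX5B, chr2L:6557802-6557830, plus strand: actttaccgcGGTCACACTgatccatagc
COX4, chr2L:19958641-19958669, plus strand: ttcgagatgtGGTCACACTtctctgcatg
ND-B17, chr2L:15751075-15751103, minus strand: ttaagagtgcGGTCACACTggcggcaaca
ND-18, chrX:19492408-19492436, plus strand: ccgctcgcctGGTCACACTggcactggcg
UQCR-Q, chr3L:17475068-17475096, plus strand: gcccgtccacGGTCACACTggttgagacg
COX7B and COX5B had an IDR promoter peak and the others did not. The core began 9 bp downstream of the TSS at COX7B and 12 bp downstream at COX5B, and -62 bp from it at COX4. None of the 21 summits had the core within 50 bp, against 13 of 1867 promoter peaks of all genes (0.696%). At so low a share, its absence at 21 summits is not particular to the members.

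Within 100 bp of the TSS, the other elements were no more common at members than at all genes. The DNA replication-related element TATCGATA was found at 6 members (6.82% against 7.45%), and of these only ND-SGDH had an IDR promoter peak. The letters TATAAA were found at 24 (27.3% against 28.8%), the initiator TCAGTT at 10 (11.4% against 21.2%), the E-box CACGTG at 1 (1.14% against 2.88%) and the GAGA element GAGAG at 15 (17.0% against 23.1%). In other windows the order changed for some elements. TATAAA was more common at members within 200 bp (52.3% against 47.9%) and in the 300 bp upstream (56.8% against 47.7%). The DNA replication-related element was so too, within 200 bp (10.2% against 8.7%) and upstream (10.2% against 8.32%). The E-box was barely so, and only upstream (3.41% against 3.31%). GAGA was present within 100 bp at 1 of the 21 genes with an IDR promoter peak and at 14 of the 67 without. The ETS site CCGGAAG, the NRF-1 site GCGCANGCGC and the cyclic AMP response element TGACGTCA, whose factors act on respiratory genes in mammals, were found at 0 members, and at 0.881%, 0.487% and 0.208% of all genes.

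Outside promoters the IDR list had little at the members. It had 24 summits in or near them, of which 23 lay within 500 bp of some TSS and 1 in an intron. The rule takes only summits in a member or within 500 bp of its TSS, and the median member spans 1097 bp. A majority at promoters is thus largely built in, and no share over all genes is given beside it. The intronic one was in ND-39, an accessory subunit gene of complex I that hosts ZnT77C, a zinc transporter gene, with a signal of 162 (rank 5248). A stronger ND-39 peak, with a signal of 323 (rank 2381), was 165 bp from the TSS of ZnT77C and 1573 bp from that of ND-39 itself. ATPsynC held a second peak, with a signal of 160 (rank 5352), 236 bp from the TSS of CG15561. Of the 141 pooled summits, 90 were at promoters (63.8%), 24 in coding exons, 19 in introns and 8 in 3′ UTRs. ND-15, which spans 41305 bp, held 30 of these and 0 of the IDR list.

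Chromosome 4, which is largely heterochromatic, carries ATPsynbeta and ND-49, and neither had an IDR promoter peak. The whole chromosome had 9 IDR peaks, and 8.75% of its protein-coding genes had a promoter peak. Elsewhere, the members with an IDR promoter peak were 4 of 16 on 2L (against 19.9% of its protein-coding genes), 1 of 17 on 2R (16.9%), 5 of 20 on 3L (20.6%), 7 of 20 on 3R (20.7%) and 4 of 13 on X (18.3%).

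Several respiratory genes have symbols outside the prefixes, and 9 of the 12 listed were in the annotation. Of these, 4 had an IDR promoter peak (44.4%, against 19.3% of all genes), or 5 by the wider rule (55.6% against 24.9%). Cyt-c-d, a cytochrome c gene, had a signal of 1551 (rank 169), but its summit lay 370 bp downstream of its own TSS and 136 bp from that of CG31808. The gene blw, for the alpha subunit of ATP synthase, had a signal of 434 (rank 1577), with the summit at -146 bp and no other gene in the window. The complex IV genes levy and cype had signals of 300 (rank 2639) and 249 (rank 3298), and both peaks were shared. The summit was nearer to wmd at levy (71 bp) and to Ncoa6 at cype (271 bp, with the summit at -273 bp from cype itself), where lncRNA:CR44985 also lay in the window. The alpha subunit gene was thus bound by the same rule under which the beta subunit gene, ATPsynbeta, was not.

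Of 8 assembly factors in the annotation, 2 had an IDR promoter peak (25%, the same by the wider rule): CIA30, which helps to assemble complex I, with a signal of 1252 (rank 245), and Cox17, a copper chaperone for complex IV, with a signal of 643 (rank 896). The CIA30 summit was nearer to the TSS of CG7601, whereas Cox17 was alone in its window. Of 8 regulators, 2 had one (25%, the same by the wider rule). ERR, a nuclear receptor that controls energy metabolism, had a signal of 774 (rank 669), although its summit lay 20 bp from the TSS of Atg18a. Dref, the factor named for the DNA replication-related element, had a signal of 323 (rank 2371) in a window shared with RpL13. Of 11 genes of the citric acid cycle and pyruvate dehydrogenase, 4 had one (36.4%, or 6 and 54.5% by the wider rule): Idh3g at 1564 (rank 163), Pdhb at 581 (rank 1047), mAcon1 at 430 (rank 1597) and Fum1, through the peak it shares with ND-ASHI. The summits at Pdhb and mAcon1 were nearer to other genes, 91 bp from alpha-Man-Ib and 81 bp from CG43345 and CG43346, and the Idh3g window also held CG4743. Of 7 genes for carriers, fusion and quality control, 0 had one, or 3 by the wider rule (42.9%). With 7 to 11 genes each, the shares of these lists carry a wide counting error and were not tested against the 19.3% and 24.9% of all genes.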

How the data were processed

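Ssrp-GFP ChIP-seq peaks of 2 replicates were analysed as deposited. Per the text deposited with the samples, each replicate list came from that replicate's alignment and 1 alignment shared by all lists, on dm6; which alignment that is, and which aligner, peak caller and IDR cutoff were used, is not given in the sources used here. Labels give a shearing size range of 200 to 800, without a unit. The deposited signal is the authors' own value per peak and served only to rank peaks of the same list. The −log10 q-values, also as deposited, have a ceiling (3.85 in the IDR list) and were not used. Summits outside their own peak (4 in the IDR list, 5 in the pooled list, 0 and 3 in the replicates) were set to its nearest base.

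Genes came from the Ensembl annotation, release 115, on assembly release 6. No peak lay beyond a chromosome's end. Scripts used Python 3.11.15, numpy 2.4.6, pandas 2.3.3, scipy 1.17.1 and matplotlib 3.10.9, and peak assignment was tested on simulated data. With 1 group there was no test: counts are given beside all protein-coding genes, with Wilson 95% intervals. Elements and divergent neighbours were sought from the TSS nearest a summit, or the most 5′ one.

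Named were all members with an IDR summit, the strongest other member of each complex, all L paralogs, listed pathway genes with an IDR promoter peak, and genes sharing a named peak. The members and lists were chosen with earlier results of these data known. The remaining names (ND-75, ND-49, ND-15, members without any summit, paralogs of levy, cype and sun, and members printed for motif 1) were chosen after their values were seen. Alternatives were other windows, the nearest TSS only, other numbers of peaks, each replicate alone and other element windows.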

Additional observations from a re-analysis of the deposited data

How the results depend on the processing

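Of 134 alternative values for 23 results, 82 stayed near the value reported and 52 moved. For counts, near was a loose limit on the fold change: the wider-rule count fell from 22 to 15 with the nearest TSS only and still counted as near. A median counted as moved when it changed by at least the SD between the values of each replicate alone. For GC content both replicates gave 26.2%, so almost any change counted as moved. The members' median signal over the list's median, 0.996 as reported, lay above 1 with a 250 bp window (1.01) and with more pooled peaks (1.06). Giving each peak to its nearest TSS only left 13 members with a promoter peak, 12 without L paralogs, 7 in complex I and 2 in complex V, with a median signal 0.925 times the list's median, a median position of -85 bp and a GC content of 26.7%. The stronger IDR peaks alone, down to the list's median signal, gave 10 members (11 by the wider rule, 10 without L paralogs), 7 in complex I, 2 in IV and 1 in V, a ratio of 0.925 and 25.2% GC. The strongest pooled peaks at double the length of the IDR list gave 37 members (42 by the wider rule, 34 without L paralogs), 2 in complex II, 3 in III, 9 in IV and 9 in V, a ratio of 1.06, -99 bp and 30.7% GC. All pooled peaks gave 55 members (63 by the wider rule, 50 without L paralogs), with 25, 4, 5, 10 and 11 in complexes I to V. More or fewer peaks change these counts by construction. A window of 1000 bp gave 1 gene of complex III and a ratio of 0.925, one of 250 bp gave 26.7% GC, and 100 bp to either side of the summit gave 30.3% GC. Leaving out a replicate gave 18 to 22 members, 17 to 21 without L paralogs, 19 to 24 by the wider rule, 10 to 11 in complex I, 0 to 1 in II and in III, 4 to 5 in IV and 3 to 5 in V. The ratio was then 0.912 to 0.941, the position -142 to -106 bp and GC content 26.2% without either replicate. Elements within 50 bp of the TSS were found at 3 members (DRE, the DNA replication-related element), 9 (TATA box) and 9 (GAGA), and within 200 bp at 46 (TATA box), 18 (initiator), 2 (E-box) and 28 (GAGA). The TATA box and DRE were less common at members than at all genes within 100 bp and more common within 200 bp and in the 300 bp upstream. In the 300 bp upstream the TATA box was found at 50 and the E-box at 3 (3.41%, against 3.31% of all genes). The cause of the shifts in signal, position and GC content was not tested. The nuclear respiratory gene element was not searched, since its letters could not be checked here. No paired analysis was possible because the replicates form 1 group. Sequencing depth is unknown, so what a deeper library would add cannot be read.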
